A study of Mus musculus with 18 samples.

Results

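Among the normal prostates of this series, the level of probasin RNA spanned a wide range, and the account below describes what else differed between glands rich and poor in it. The members were chosen by a measured value, the deposited signal of the single probe set for Pbsn on the array. Of 18 arrays in all, 9 are normal prostate. Of these, 4 had a Pbsn signal of 3000 or above and are called probasin-rich (normal prostates 1, 4, 5 and 7), and 4 had a signal of 100 to 3000 and are called probasin-poor (normal prostates 2, 3, 6 and 8). Normal prostate 9, whose signal lay below 100, was left out of the comparison.

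The series set normal mouse prostate beside tumours of the TRAMP mouse, in which a viral oncogene is driven by the probasin promoter. Every normal sample is described as prostate tissue of the ventral and the dorsolateral lobes, with no treatment, and the labels used here name no strain, genotype, age or number of pooled animals, nor the share of each lobe. Total RNA was hybridised to 1 Affymetrix array per sample, with 45101 probe sets. Nothing in the labels says that the samples came from separate animals, so any p-value measures only the spread between these samples.

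The mouse prostate is a set of paired lobes around the urethra, and each lobe is made of glandular ducts in a sleeve of smooth muscle and connective tissue. Its luminal cells secrete large amounts of a few proteins, many of them under the control of androgen and its receptor, and the lobes differ in which proteins they make. Probasin, a lipocalin of the secretion, is best known from the dorsolateral lobes, and the androgen-driven promoter of the rat gene is the one used to express transgenes in mouse prostate.

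The sequence just upstream of the mouse Pbsn start site is shown because that gene defined the groups, and those of H2-Q10, Sp5 and Smgc because they are among the 5 genes with the largest differences in the same direction as Pbsn and no overlap between the groups. Each is the 250 bases before the annotated start in RefSeq (GRCm38.p6), written 5′ to 3′ on the gene's strand: chrX:77853501-77853750, minus strand, for Pbsn, chr17:35469839-35470088, plus strand, for H2-Q10, chr2:70474673-70474922, plus strand, for Sp5 and chr15:91838078-91838327, plus strand, for Smgc. The others of these 5 genes are Msmb and Defb1. Capitals mark AGAACA or its reverse complement TGTTCT, the hexamer to which the androgen receptor binds as part of a longer element.
Pbsn: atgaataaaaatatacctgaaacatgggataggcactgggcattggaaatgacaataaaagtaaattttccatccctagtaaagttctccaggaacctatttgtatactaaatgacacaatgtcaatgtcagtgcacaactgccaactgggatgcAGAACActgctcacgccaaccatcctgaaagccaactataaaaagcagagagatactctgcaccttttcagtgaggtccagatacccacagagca
H2-Q10: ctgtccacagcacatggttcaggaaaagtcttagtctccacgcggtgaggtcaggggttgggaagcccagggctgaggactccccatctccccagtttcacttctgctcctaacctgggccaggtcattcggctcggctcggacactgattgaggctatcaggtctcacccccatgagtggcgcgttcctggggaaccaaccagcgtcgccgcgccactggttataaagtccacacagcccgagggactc
Sp5: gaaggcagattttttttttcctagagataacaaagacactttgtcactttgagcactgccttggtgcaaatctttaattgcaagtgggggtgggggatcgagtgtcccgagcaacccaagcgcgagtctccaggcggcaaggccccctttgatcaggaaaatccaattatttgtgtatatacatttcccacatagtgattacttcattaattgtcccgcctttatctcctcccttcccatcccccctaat
Smgc: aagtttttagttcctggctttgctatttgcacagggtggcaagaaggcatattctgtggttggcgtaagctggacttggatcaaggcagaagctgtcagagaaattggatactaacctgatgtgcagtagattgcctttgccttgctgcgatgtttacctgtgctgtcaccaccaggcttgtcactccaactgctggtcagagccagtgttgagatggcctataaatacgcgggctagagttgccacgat
The Pbsn window held 1 match, which began 95 bases before the start. The windows of H2-Q10, Sp5 and Smgc held 0 matches. Over all 32851 upstream windows of this length, 16.1% held the hexamer on either strand, so a match is common and is given as a description of the letters only.

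Pbsn itself is described without a test, since its signal made the groups. Its signal was 6928 on normal prostate 1, 21983 on 4, 6453 on 5 and 10632 on 7, against 255 on normal prostate 2, 1756 on 3, 513 on 6 and 1217 on 8. The arrays nearest the upper bound were thus normal prostate 5 inside it and normal prostate 3 outside it, and the lowest array kept by the lower bound was normal prostate 2, with normal prostate 9 outside it. On the scale used below, log2(signal + 16), Pbsn was 13.31 ± 0.81 (SD, n = 4) in the rich and 9.55 ± 1.22 (n = 4) in the poor arrays. Even the poor arrays lay far above normal prostate 9, at a signal of 2.17, and above the 9 tumours, at 70.6 or less. The highest Pbsn signal among the 8 arrays, on normal prostate 4, was 86.3 times the lowest, on normal prostate 2.

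The 2% trimmed mean of the signals was 500 on every array, and the 8 arrays correlated at 0.86 to 0.94 over all probe sets. Poly-A spike-in controls were bright on normal prostates 1 to 6 and dim on 7, 8 and 9, so 3 rich and 3 poor arrays shared the first state and 1 of each the second. The 3′ minus 5′ difference of the actin probe sets, which grows as RNA degrades, was 1.91 ± 0.58 (log2) in the rich and 1.86 ± 0.45 in the poor arrays (exact permutation p = 0.943, two-sided, n = 4 each, smallest possible p 0.0286). The same difference for Gapdh was 0.82 and 0.50 (exact permutation p = 0.343).

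With Pbsn left out, 12900 genes were compared. Of all these genes, 6774 were higher in value in the rich arrays and 6126 lower. No gene passed limma's test at an adjusted p of 0.05 (0 genes, 0%), and the smallest adjusted p was 0.457, for Msmb. At an unadjusted p under 0.05 there were 360 genes, 166 higher in the rich arrays (1.29% of genes) and 194 lower (1.5%). In 124 genes all 4 rich values lay above all 4 poor values (0.961%), and in 95 all 4 lay below (0.736%). Of these 219 genes, 56.6% were above. Of the 70 ways to regroup the arrays 4 against 4, a single way separates a gene fully in a given direction. If levels were unrelated to the split, that share, larger than 0.961% and 0.736%, would be expected each way. The 360 genes, 2.79% of all, were likewise fewer than an unadjusted p under 0.05 gives by chance. These counts thus do not exceed chance, and the genes without overlap are not shown to follow Pbsn. When each array was centred on its 75th percentile, 232 genes did not overlap and 70.3% of them were above, and without normal prostate 4, 558 did not and 41.9% were above, so the balance of directions depends on these choices. The differences given below are therefore differences in measured level that did not pass the test across all genes. In whole tissue, fewer cells of a type and less RNA per cell cannot be told apart.

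**Figure D1:**
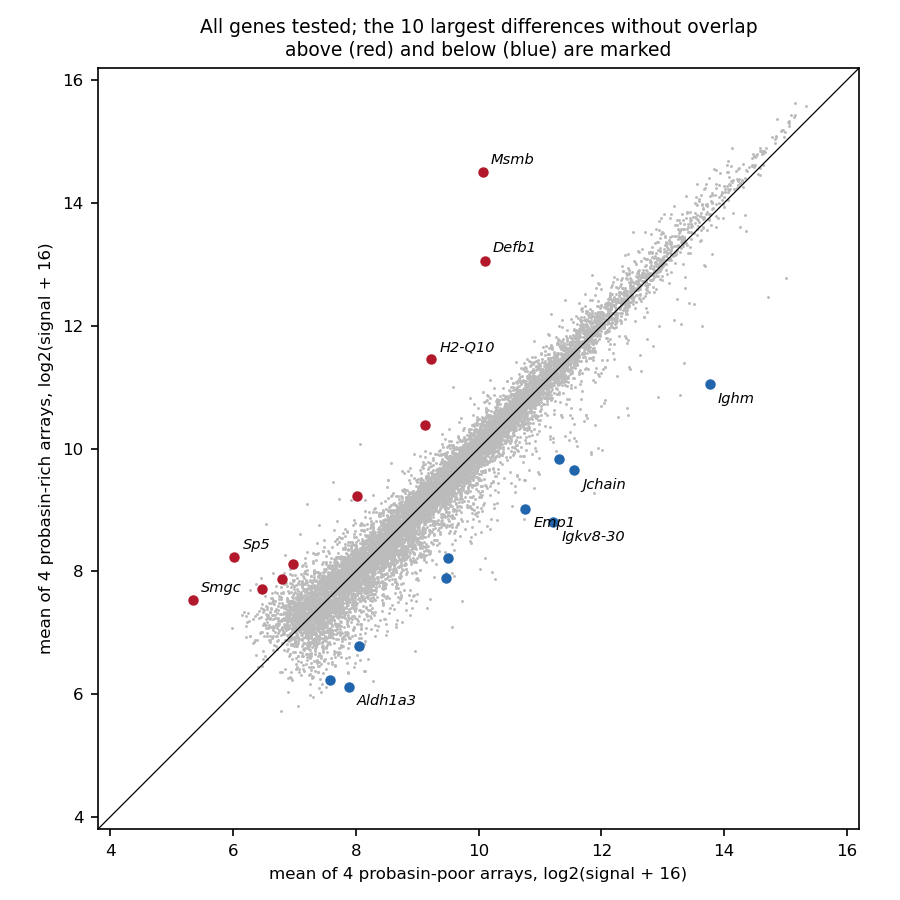
Mean log2(signal + 16) of the 4 probasin-rich arrays (vertical) against that of the 4 probasin-poor arrays (horizontal) for 12900 genes, 1 point each, with the line of equal levels. Red and blue points are the 10 largest differences above and below among genes whose groups did not overlap; Msmb, at 14.51 against 10.07, stands farthest from the line.

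Among the 124 genes whose rich values all lay above the poor ones, the 5 largest differences above belonged to Msmb, Defb1, H2-Q10, Sp5 and Smgc. Msmb encodes beta-microseminoprotein, a small secreted protein of prostatic fluid. Its level was 13.99, 15.29, 13.94 and 14.81 on the rich arrays 1, 4, 5 and 7, and 9.09, 9.32, 10.04 and 11.81 on the poor arrays 2, 3, 6 and 8. Every rich array lay above every poor one, with normal prostate 8 the highest of the poor. The difference was 4.44 ± 0.59 (SE) on the log2 scale, 21.7-fold, with a limma adjusted p of 0.457. It was 4.92 within the arrays with bright spike-in controls and 2.99 between normal prostates 7 and 8. Without normal prostate 8 the difference was 5.02 and the limma adjusted p 0.0202, the only leave-one-out fit in which a gene passed. Normal prostate 9 had 5.63, and the tumours 4.94 to 11.43.

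Defb1 encodes a beta-defensin, an antimicrobial peptide of epithelia. Its level was 12.74, 13.80, 12.65 and 13.06 on the rich arrays 1, 4, 5 and 7, and 8.69, 11.09, 10.39 and 10.24 on the poor arrays 2, 3, 6 and 8. The groups did not overlap, and the array lowest in Pbsn, normal prostate 2, was also lowest here. The difference was 2.96 ± 0.48 (limma adjusted p = 0.771), and the other Defb1 probe set gave 2.76, also without overlap. Normal prostate 9, in which Pbsn was near the bottom of the scale had a Defb1 level of 11.11, close to the highest poor array.

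H2-Q10 encodes a secreted class I histocompatibility molecule, and its probe set may also detect close relatives of that family. Its level was 10.81, 12.51, 11.18 and 11.32 on the rich arrays 1, 4, 5 and 7, and 8.89, 8.20, 9.86 and 9.95 on the poor arrays 2, 3, 6 and 8. The groups were separated by 0.86 between the lowest rich and the highest poor value, a smaller gap than the 2.13 of Msmb and the 1.56 of Defb1. The difference was 2.23 ± 0.47 (limma adjusted p = 0.993).

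Sp5 encodes a zinc finger transcription factor known as a target of Wnt signalling. Its level was 7.62, 9.20, 7.96 and 8.16 on the rich arrays 1, 4, 5 and 7, and 5.47, 6.43, 5.36 and 6.84 on the poor arrays 2, 3, 6 and 8. All 4 poor values lay below the 40th percentile of their arrays, which was 7.05 to 7.22 and below which a probe set is called dim, so the difference is a bound of at least 2.18-fold. Smgc, the submandibular gland protein C gene that shares its locus with a mucin, was likewise dim on all 4 poor arrays. It was 7.23, 8.36, 7.27 and 7.23 on the rich arrays 1, 4, 5 and 7 and 5.60, 4.54, 5.55 and 5.66 on the poor arrays 2, 3, 6 and 8, a bound of at least 1.34-fold. Sp5 and Smgc passed the filter on low values only through the 4 rich arrays, so their lack of overlap follows largely from the filter. Normal prostate 4 was the brightest array for both genes. The limma adjusted p was 0.993 for Sp5 and 0.771 for Smgc.

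Within the rich group the order of the arrays was normal prostates 4, 7, 1 and 5 for Pbsn, Msmb and Defb1. It was 4, 7, 5 and 1 for H2-Q10 and Sp5, and 4, 5, 1 and 7 for Smgc. Normal prostates 1 and 5 lay close together, at 13.99 and 13.94 for Msmb. Normal prostate 4 was the highest array for each of the 5 genes, which were chosen so that the highest array is always a rich one. Within the poor group the orders differed: Pbsn was highest on normal prostate 3, Msmb, H2-Q10, Sp5 and Smgc on 8, and Defb1 on 3. When the log2 Pbsn level replaced the groups in the fit, 2 genes passed, Defb1 (limma adjusted p = 0.00468) and Sp5 (0.0179), while Msmb did not. This fit used the Pbsn values that made the groups and left out normal prostate 9. There Pbsn was 4.18 on the log2 scale while Defb1 was 11.11, above all 4 poor arrays. Since Sp5 was dim on all 4 poor arrays and entered through the rich ones, its call rests on values under the dim limit. Both calls are given as a description.

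**Figure D2:**
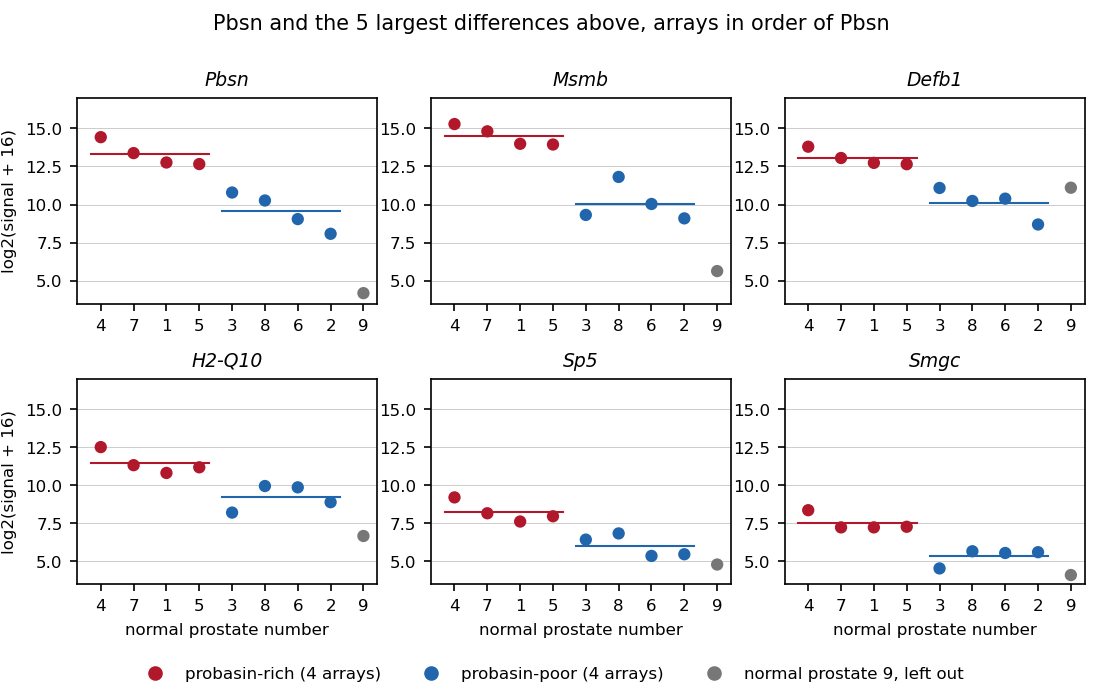
Log2(signal + 16) of Pbsn, which defined the groups, and of the 5 largest differences above among genes whose groups did not overlap. Normal prostates are in order of Pbsn signal, and horizontal lines are means of 4 arrays. The rich arrays (red) lie above the poor arrays (blue) in every panel, and normal prostate 9 (grey) is at 11.11 for Defb1 but at 5.63 for Msmb.

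Among genes whose groups did not overlap, the next 5 differences above were between 1.08 and 1.25. Atp6v1c2, a subunit of the vacuolar proton pump, was 9.96 to 10.86 on the rich and 7.46 to 9.90 on the poor arrays, with normal prostate 3 the lowest. The groups came within 0.1 of each other. The others were Gm8479, Ksr2, a scaffold of the MAP kinase cascade, Mfap2, a protein of elastic microfibrils, and Defa39, an alpha-defensin whose probe set may match other members of its family. The limma adjusted p was 0.993 for each of the 5. Of the 4 poor arrays, Gm8479 was dim on 3, Mfap2 on 2 and Ksr2 on 1.

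The secretory products were a list of 15 genes, of which 11 were on the array with a probe set of their own. Besides Pbsn, 10 could be compared, and 9 of them were higher in value in the rich arrays, with a median difference of 0.62 against 0.01 over all genes. None passed the test, and 1 had an unadjusted p under 0.05, against 1.29% of all genes in that direction. Msmb was the only one whose groups did not overlap, against 0.961% of all genes. The values of the others overlapped between the groups. Spink1, an inhibitor of trypsin in the secretion, was 15.15, 15.38, 14.94 and 16.24 on the rich arrays 1, 4, 5 and 7, and 15.06, 15.06, 15.20 and 15.08 on the poor arrays 2, 3, 6 and 8. Its groups overlapped, and it was 4.60 on normal prostate 9.

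Azgp1, a lipid-binding secreted glycoprotein, was 14.80, 14.93, 14.49 and 15.37 on the rich arrays 1, 4, 5 and 7, and 14.75, 12.98, 14.67 and 14.10 on the poor arrays 2, 3, 6 and 8. Only normal prostate 3 lay more than 1 below the lowest rich array. Cdcp3, a protein with CUB domains, was 13.94 to 14.73 on the rich arrays and 14.24, 11.86, 14.36 and 13.75 on the poor arrays 2, 3, 6 and 8. Agr2, a protein disulfide isomerase of mucus-secreting cells, was 12.80 to 13.51 on the rich arrays and 13.09, 11.04, 13.14 and 12.46 on those same poor arrays. In all 3 genes normal prostates 2 and 6, the arrays poorest in Pbsn, lay inside the range of the rich arrays. Egf, the epidermal growth factor gene, was 12.84 to 13.82 on the rich arrays and 13.58, 11.34, 13.68 and 13.21 on the poor arrays 2, 3, 6 and 8. Here 3 of the 4 poor arrays were within the rich range.

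Normal prostate 3 was the lowest of the 8 arrays for 7 of the 10 secretory genes, and for 24.8% of all genes. Without it the median difference of the list was 0.28, and 8 of 10 genes were higher in value in the rich arrays, while without normal prostate 6 it was 0.93. Nucb2, a calcium-binding secretory-pathway protein, was 11.67 on normal prostate 3 and 13.30 to 14.35 on the other 7 arrays, and Apof, an apolipoprotein, 8.61 against 10.81 to 12.07. Wfdc3, a small protein of the whey acidic protein family, was 14.24 to 15.23 on the rich and 13.51 to 14.49 on the poor arrays. Tgm4, the transglutaminase that clots seminal fluid, followed neither group: it was 8.98 on normal prostate 4, 9.45 on 3 and 8.26 on 8, and 6.15 to 7.10 on the other 5.

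**Figure D3:**
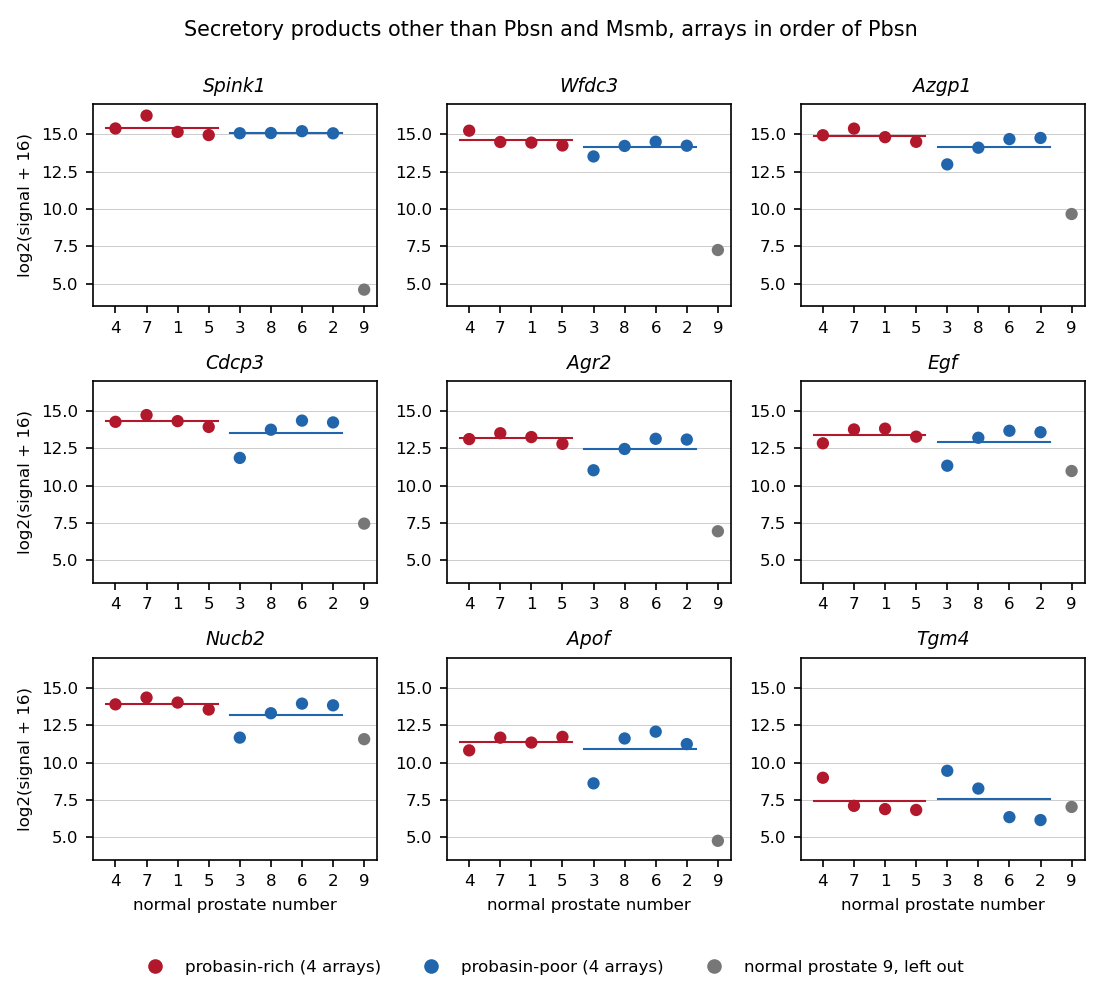
Log2(signal + 16) of 9 secretory products other than Pbsn and Msmb, by normal prostate in order of Pbsn signal; horizontal lines are means of 4 arrays. Red and blue points overlap in every panel, normal prostate 3 is the low poor array for Azgp1 (12.98), Cdcp3 (11.86), Agr2 (11.04), Egf (11.34), Nucb2 (11.67) and Apof (8.61), and normal prostate 9 (grey) is at 4.60 for Spink1.

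Genes of the secretory machinery were slightly higher in value in the rich arrays. Of 27 genes for protein folding in the endoplasmic reticulum, 24 were higher, with a median difference of 0.38, and of 25 genes of the translocon and vesicle coats, 25 were, with a median of 0.26. None passed the test or separated the groups. Hspa5, the main chaperone of the endoplasmic reticulum, was 14.15 to 14.98 on the rich and 13.29 to 14.60 on the poor arrays. Derl3, of the pathway that removes misfolded proteins, was 10.37 to 11.41 against 9.22 to 10.65. It was the only folding gene with an unadjusted p under 0.05, against 1.29% of all genes in that direction. Normal prostate 3 was the lowest array for 23 of the 27 folding genes and 20 of the 25 others. Without it the medians were 0.17 and 0.15. Mitochondrial respiration genes gave a median of 0.18, with 19 of 20 higher in value, and 0.08 without normal prostate 4.

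Luminal marker genes had a small median difference, 0.12 over 16 genes, with 11 of them higher in value, and none separated the groups. With 1 array left out it was 0.00 (without normal prostate 3) to 0.24 (without 6), and without normal prostate 3 only 8 of 16 were higher. Krt18 and Krt8, the keratins of luminal cells, had means of 14.29 and 13.73 in the rich and 14.23 and 13.75 in the poor arrays. Hoxb13, a homeobox gene of the prostate, was 12.76 to 13.58 on the rich arrays and 12.62, 12.90 and 13.19 on the poor arrays 2, 6 and 8, with 10.85 on normal prostate 3 and 4.50 on normal prostate 9. As a marker of the labelled tissue it was thus bright on the 8 arrays compared and not on the array left out. Of 21 genes known to respond to androgen, 14 were higher in value, with a median difference of 0.17, which was 0.04 without normal prostate 8, 0.06 without 3 and 0.07 without 7. The only one of the 21 without overlap, against 0.961% of all genes, was Zbtb10, a zinc finger gene, at 9.26 to 9.51 on the rich and 8.95 to 9.18 on the poor arrays. Its difference of 0.30 ranged from 0.11 to 0.41 with 1 array left out and the brightest probe set chosen anew. The next genes of this list by absolute t went the other way, Pmepa1 by -1.48 and Acpp by -0.52, and their groups overlapped. In all 7 of the 21 were lower, and the mean level of the list was 10.63 in the rich and 10.67 in the poor arrays. Among 13 regional transcription factors the median was -0.01, and -0.26 to 0.11 with 1 array left out. Of these Pax8 alone separated the groups, against 0.961% of all genes. Pax8 was 7.28 or more on the rich arrays against 7.23 or less on the poor ones, close to the dim limit, and dim on 3 of the 4 poor arrays. It was 11.45 on normal prostate 9.

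Among the 95 genes whose rich values all lay below the poor ones, the largest differences were led by immunoglobulin genes. Ighm, the heavy chain of immunoglobulin M, was 12.75, 13.03, 13.29 and 5.14 on the rich arrays 1, 4, 5 and 7, and 14.20, 13.57, 13.88 and 13.41 on the poor arrays 2, 3, 6 and 8. Normal prostate 7 stood alone at the bottom, and the other rich arrays lay just under the poor ones. The difference of -2.71 ± 1.63 (limma adjusted p = 0.993) was -0.74 without normal prostate 7. Of the 6 kept probe sets for Ighm, 2 were lower in the rich arrays and 4 were not. Jchain, the chain that joins immunoglobulin units for secretion, was 9.96, 9.95, 11.03 and 7.64 on the rich arrays 1, 4, 5 and 7, against 12.13, 11.39, 11.66 and 11.04 on the poor arrays 2, 3, 6 and 8. Its groups came within 0.1 of each other, and the difference of -1.91 ± 0.63 (limma adjusted p = 0.993) was -1.25 without normal prostate 7. The light-chain locus Igk and a kappa variable-region gene differed by -1.30 and -2.41, and by -0.95 and -1.26 without that array.

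Aldh1a3, an enzyme that makes retinoic acid, did not follow normal prostate 7. It was 6.79, 4.94, 6.21 and 6.53 on the rich arrays 1, 4, 5 and 7, and 8.54, 7.17, 7.70 and 8.13 on the poor arrays 2, 3, 6 and 8. All 4 rich values were dim, which gives a bound of at least 1.70-fold lower, and normal prostate 4, the richest in Pbsn, was the lowest. Prr16 was also dim on all 4 rich arrays, at 5.25 to 7.13 against 7.27 to 7.92, at least 1.37-fold lower. Aldh1a3 and Prr16 passed the filter on low values only through the 4 poor arrays, so their lack of overlap follows largely from the filter. The limma adjusted p was 0.993 for both.

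The other genes of the 10 largest differences below without overlap were Emp1, a membrane protein of epithelia, Pi16, a fibroblast gene, Lyz2, the lysozyme of macrophages and neutrophils, and Cfb, complement factor B. Lyz2 was 10.85, 10.67, 9.36 and 8.41 on the rich arrays 1, 4, 5 and 7, against 11.04, 10.97, 11.05 and 12.17 on the poor arrays 2, 3, 6 and 8. The lowest poor value was 10.97 and the highest rich one 10.85. Emp1 differed by -1.74, Pi16 by -1.57 and Cfb by -1.27, and by -1.11, -1.03 and -0.93 without normal prostate 7. The second Emp1 probe set gave a difference of 0.09. Normal prostate 7 was the lowest array for 8 of these 10 genes and for 19.7% of all genes. The 2 shares are not alike, since the 10 were chosen so that the lowest array is always a rich one.

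**Figure D4:**
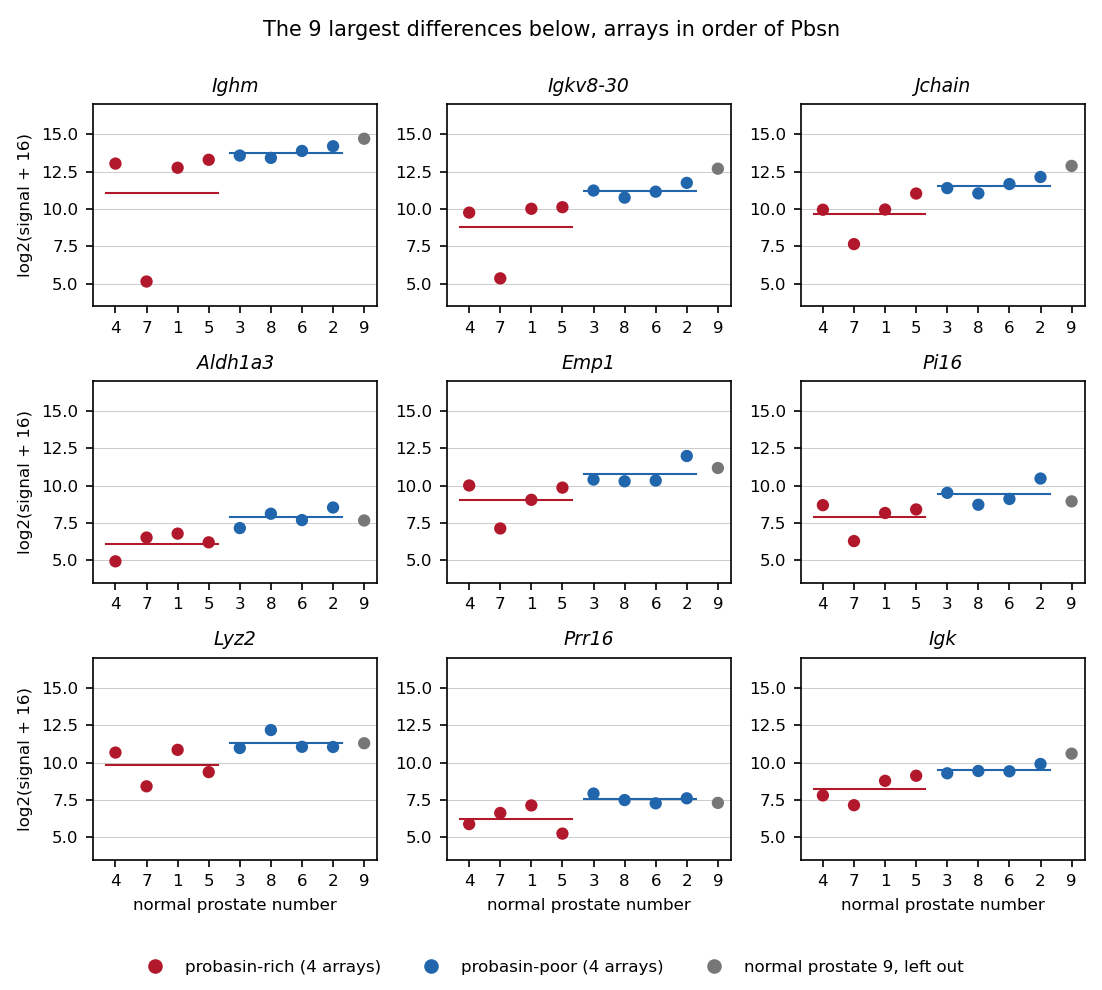
Log2(signal + 16) of the 9 largest differences below among genes whose groups did not overlap, by normal prostate in order of Pbsn signal. Horizontal lines are means of 4 arrays. Normal prostate 7 is far below all others for Ighm (5.14) and the kappa variable-region gene (5.35), while the lowest value of Aldh1a3 (4.94) is on normal prostate 4.

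The cell types around the ducts were read from lists of marker genes, and for each the mean log2 level over its genes is given by array. The macrophage and myeloid genes were lower in value in the rich arrays in 14 of 14 cases, with a median difference of -0.59, and 2 of them, Lyz2 and C1qb, separated the groups, against 0.736% of all genes. Their mean level was 9.04, 9.51, 8.63 and 8.31 on the rich arrays 1, 4, 5 and 7, and 9.55, 9.33, 9.50 and 10.09 on the poor arrays 2, 3, 6 and 8. Normal prostate 4 lay inside the poor range, and the others below it. Of the 14, 4 had an unadjusted p under 0.05, against 1.5% of all genes, and none passed the adjusted test. C1qa, a chain of the first complement component and a macrophage marker, was 6.63 to 9.11 on the rich and 8.55 to 10.77 on the poor arrays. Without normal prostate 7 the list's median over the same genes was -0.43, with 14 of 14 lower.

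The 4 measured B and plasma cell genes were all lower in value, with a median of -1.31, and -0.53 without normal prostate 7. Their mean level was 6.79 on normal prostate 7, 9.54 to 10.19 on the other rich arrays and 10.30 to 10.74 on the poor arrays. Cd79a and Cd79b, which mark B cells as such, were below the filter on low values. Ms4a1, a B cell gene that passed it, had means of 7.36 in the rich and 8.06 in the poor arrays, and its groups overlapped. Its difference of -0.70 was -0.32 without normal prostate 7, smaller than those of Ighm and Jchain. T and NK cell genes had a median of 0.04 over 4 genes, and -0.09 to 0.08 with 1 array left out. Of that list, Cd3e, Cd3d, Cd3g, Cd2, Cd4 and Cd5 were below the filter. Gzmb and Nkg7, which passed, had group means of 7.31 to 7.61, near the dim limit. Equal T cell levels are thus not shown.

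Adipocyte genes had the widest spread among the glands. Of 11 genes 11 were lower in value in the rich arrays, with a median of -1.65, but the groups overlapped for each. Adipoq, the adiponectin gene of fat cells, was 11.81, 14.30, 10.67 and 6.71 on the rich arrays 1, 4, 5 and 7, and 14.30, 13.39, 12.31 and 13.11 on the poor arrays 2, 3, 6 and 8. The array richest in Pbsn, normal prostate 4, and the poorest, normal prostate 2, thus shared the highest level. The list's mean level ranged from 6.50 on normal prostate 7 to 12.18 on normal prostate 4, with 10.08 to 12.06 on the poor arrays. Without normal prostate 7 the median was -0.62, and without normal prostate 4 it was -2.67.

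Connective tissue and vessel genes were also lowest on normal prostate 7. Fibroblast and matrix genes were lower in value in 18 of 19 cases, with a median of -0.65, and endothelial genes in 12 of 12, with a median of -0.42. Normal prostate 7 was the lowest array for 15 of the 19 and 9 of the 12. Without it the medians were -0.27 and -0.20, and without normal prostate 4 the endothelial median was -0.72. Dpt, a matrix protein of fibroblasts, was 7.08 on normal prostate 7 and 10.01 or above elsewhere. Plvap, of the diaphragms of small vessels, was 5.09 to 7.65 on the rich and 7.18 to 8.72 on the poor arrays. Its unadjusted p was 0.029 and its limma adjusted p 0.993. On normal prostate 7 low levels of fat, matrix, vessel and immune genes came together with the second-highest Pbsn, and the part of these cells in the differences above was not tested. That array also had the highest actin and Gapdh 3′ minus 5′ differences of those compared. Whether RNA quality had a part in its low levels was not tested.

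Other arrays stood apart in other cell types, and those arrays came from both groups. Smooth muscle genes had a mean level of 12.59 on the rich normal prostate 5 and 12.35 on the poor normal prostate 3, against 9.27 to 10.93 on the other 6. Tagln, an actin-binding protein of smooth muscle, was 14.45 and 14.36 on those arrays and 11.56 to 13.82 on the rest. The median of the 14 smooth muscle genes was -0.63, with 12 of 14 lower in value in the rich arrays. It was -1.40 without normal prostate 5 and -0.10 without normal prostate 3, when 8 of 14 were lower. Urothelial genes, those of the lining of bladder and urethra, had a mean level of 13.31 on normal prostate 3 and 11.32 on 5, against 8.30 to 9.29 on the others. Basal epithelial genes were highest on the same arrays, at 11.54 on normal prostate 3 and 10.24 on 5. Trp63, the p63 gene of basal cells, was 11.96 and 10.11 there and 8.37 to 9.43 on the other 6. The median of the 8 basal genes was -0.42 with all arrays, when 7 of 8 were lower, 0.10 without normal prostate 3 and -0.92 without 2.

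Skeletal muscle genes were a matter of a single array. Their mean level was 13.50 on normal prostate 1 and 7.99 to 8.93 on the other 7, and normal prostate 1 was the highest for 9 of 9 genes. Ckm, the creatine kinase of muscle, was 14.17 on normal prostate 1 and 6.78 to 10.52 elsewhere, while its other probe set gave means of 7.41 and 7.42. The list's median was 0.86 with all 8 arrays, -0.35 without that array and 1.49 without normal prostate 4. Of 9 seminal vesicle genes on the array, 7 were below the filter, though Svs4 was 10.15 on normal prostate 3. Svs5, a secreted protein of that gland, was 7.44 to 10.08 on the 8 arrays, highest on normal prostates 3 and 5, and 14.96 on normal prostate 9.

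**Figure D5:**
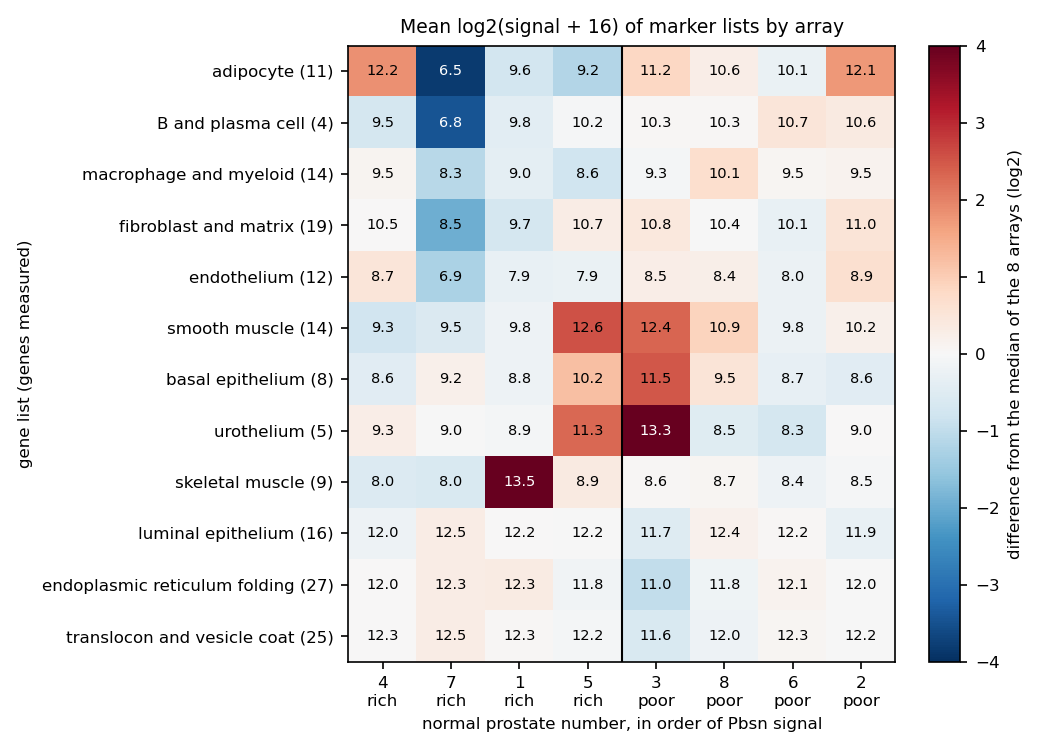
Mean log2(signal + 16) over the measured genes of 12 lists (rows; number of genes in brackets) on the 8 arrays (columns, in order of Pbsn signal), with colour for the difference from the median of the 8. The low cells of normal prostate 7 (adipocyte 6.5, B and plasma cell 6.8), the skeletal muscle cell of normal prostate 1 (13.5) and the urothelium cell of normal prostate 3 (13.3) stand out, while the luminal row runs from 11.7 to 12.5.

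Other lists gave small medians. Of 16 immediate early and heat shock genes, 14 were lower in value in the rich arrays, with a median of -0.27 (-0.35 to -0.10 with 1 array left out, nearest 0 without normal prostate 2), and Fos, an early response transcription factor, was 8.61 to 10.92 on the rich and 10.26 to 11.96 on the poor arrays. Cell division genes had a median of 0.06, interferon-stimulated genes -0.14 and fatty acid and cholesterol synthesis genes -0.02, and each of these took both signs as single arrays were left out. Among 12 genes of zinc transport and citrate, features of prostate secretion, 9 were higher in value, with a median of 0.23, and 0.13 without normal prostate 3. Mt1, a zinc-binding metallothionein, was 14.07 to 15.12 on the rich and 12.99 to 14.49 on the poor arrays. Of 10 polyamine genes 7 were higher in value, with a median of 0.24, and 0.08 without normal prostate 3 and 0.12 without 7. None of the genes of these lists passed the test.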

How the data were processed

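The deposited values are MAS5 probe set intensities on a linear scale, made by the authors per the submitters' processing notes. Groups came from the deposited Pbsn signal among samples labelled normal, so they are defined by a readout, and the tests ask only which other levels go with that split on these arrays. The members and gene lists were chosen with earlier results of these data known. Log2(signal + 16) was taken with no further normalization. A fold change on this scale understates that of dim genes. Probe sets brighter than the 40th percentile on 4 or more of the 8 arrays stayed in (27582), and the brightest of these that names a single gene stood for that gene. Probe sets were named from the platform annotation (34945 of 45101 name 1 gene, 932 several, 9160 none; 34741 matched GRCm38.p6 by identifier). Groups were compared by limma 3.58.1 under R 4.3.3, two-sided, and p-values were adjusted by Benjamini-Hochberg over 12900 genes with a threshold of 0.05. On simulated data for this comparison, with each gene drawn independently of the others, it called 36 of 100 genes changed by 1 (log2) and 85 of 100 changed by 2, with 6 false calls. Genes that move together on an array were not simulated, so these rates need not hold for the data. A fold given as a bound sets the brighter group's mean against the 40th percentile of the dim group's arrays, or each dim value if higher. Of 442 listed symbols in 29 lists, 48 had no probe set of their own and 331 passed the filter; lists are described by counts and medians without a test. Named genes were the 10 largest differences each way without overlap, all measured secretory products and up to 3 per other list by absolute t; values of Krt8, Krt18 and C1qb were chosen after they were seen. The number of arrays limits the precision. Alternatives were pseudocounts, filters, normalization, probe set choice, variance model, spike-in state, actin ratio, other sample sets, a continuous Pbsn term and omission of each array; list medians without single arrays were added after seeing the data. Plots used Python 3.11.15 and matplotlib 3.10.9.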

Additional observations from a re-analysis of the deposited data

Results flagged for a closer look

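Within each group of 4 arrays, a value set apart from its 3 neighbours by most of the group's range was picked out. Chance alone picks about 1 in 20 groups, and 21 of 216 were. On normal prostate 3 these were low values of Smgc (4.54), Atp6v1c2 (7.46), Creb3l4 (7.73) and Edem1 (10.16) and high values of Snx31 (12.82) and Hspb6 (10.53). On normal prostate 4 they were high values of Smgc (8.36), Tgm4 (8.98) and Creb3l4 (10.14). Normal prostate 7 was low in Ighm (5.14) and a kappa variable-region gene (5.35). Normal prostate 5 was high in Tagln (14.45) and low in Gzmb (6.63). Normal prostate 1 was high in Pvalb (13.68) and Smox (9.56), and normal prostate 2 in Emp1 (11.99) and Zfp36 (10.75). Normal prostate 6 was low in Ksr2 (5.65) and high in Spink1 (15.20), by a small absolute margin. Normal prostate 8 was high in Lyz2 (12.17) and in its median log2 signal over all probe sets (7.73).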

How the results depend on the processing

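The count of genes past the test was 0 under all settings but these: with log2 Pbsn as a continuous term it was 2 (Defb1, and Sp5, whose poor values were all dim), and with 1 array left out in turn it was 0 to 1 (Msmb without normal prostate 8). Over all settings the limma adjusted p of Msmb ran from 0.0202 to 1 and that of Defb1 from 0.00468 to 1. The lowest Defb1 value came from the continuous Pbsn term. That term uses the values that made the groups, so the value is a description and not support. The 219 genes without overlap became 379 with no filter, 134 with a 60th percentile filter, 785 with the bright spike-in arrays alone, 870 without normal prostates 1 and 3, and 397 to 793 with 1 array left out; fewer arrays separate more easily by construction. Over all 104 named genes, 69 of 2609 values turned sign, in 22 genes; the leading genes were chosen for groups that do not overlap, so leaving out an array cannot turn theirs while the probe set stays the same. No paired analysis was possible because the 8 normal arrays compared carry different replicate numbers. At 4 arrays a group, differences of 1 (log2) were mostly below what the test calls in simulated, independent genes. In the data larger differences missed it too, such as 4.44 for Msmb and 2.96 for Defb1. A gene that missed the test is thus not shown to be equal.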
